A study of Homo sapiens with 21 samples.

Results

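Very long genes were taken as those in the count table with all entries on 1 chromosome and 1 strand and a distance of 600 kb to 3 Mb between the outermost exon ends. The rule found 195 genes of 26485, lying in 180 separate loci that cover 175 Mb of the hg38 genome. Neither RNA levels nor DRIP-seq peaks entered the choice. The study compared MDA-MB-436 cells, an established human breast cancer line with a mutated BRCA1 gene, that carried a doxycycline-inducible lentiviral short hairpin against RNF8 (shRNF8) or a hairpin without that target (shScr). The RNF8 protein attaches ubiquitin near DNA breaks, and the series concerns its part in removing R-loops through XRN2, an exonuclease that ends transcription. RNA-seq came from 3 shRNF8 and 3 shScr libraries. DNA-RNA hybrids were precipitated with the S9.6 antibody (DRIP-seq) in 4 shRNF8 and 2 shScr libraries, and 6 further libraries with the same numbers were treated with RNase. Both arms share the cell line with its BRCA1 mutation and the inducible vector. Only 1 hairpin sequence against RNF8 is labelled, no rescue is labelled, and the labels give neither the doxycycline dose nor the time. Whether the libraries of an arm stem from separate cultures is not labelled either, so the p-values here rest on the spread between samples alone, and that spread may be technical.

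A very long gene takes RNA polymerase II many hours to cross, and most of what it transcribes is intron that is spliced out. Such genes depend on topoisomerases, elongation factors and splicing to keep the polymerase going, and many are known for neuronal adhesion, synapse and ion channel proteins. Several lie at common fragile sites, where replication and transcription of 1 long unit may meet. An R-loop is a stretch in which the transcript pairs with its DNA template and displaces the other strand. The S9.6 antibody binds the hybrid, and the summit of a peak marks where its signal is highest.

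The 195 genes had a median span of 835 kb, with a range of 605 to 2766 kb, and 62 spanned at least 1 Mb. Their exons added up to a median of 5703 bp, or 0.620% of the span. The spans of 20 members were not those of 1 transcribed unit: the table lists several short copies of the gene under 1 name, and the RefSeq gene of that symbol covers less than 50% of the span. These included the 3 longest, LOC286297 (2766 kb), NUDT4P2 (2455 kb) and NUDT4P1 (2455 kb), and a cluster of 12 on chromosome 16 with BOLA2, SLX1A and SULT1A3. The other 175 are called single-copy genes here, and 170 of them are protein-coding. PTPRD, DMD, DLG2, CSMD1 and MACROD2 were the longest of these, at 2298, 2220, 2172, 2059 and 2058 kb. At the lower limit of the rule, ADGRV1, KHDRBS2 and FOXP2 spanned 605, 606 and 607 kb, and SNX29, ELMO1 and AFF3, at 598, 596 and 595 kb, fell just outside it.

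The letters around the annotated start are shown for 4 single-copy genes. In 2 of them, LPP and KCNMA1, an S9.6 summit lay within 1000 bp of the start in all 6 untreated S9.6 libraries. In the other 2, EXOC4 and DIAPH2, no library had a summit there. EXOC4 and DIAPH2 were picked by RNA level per kb of exon among genes without a start summit. Each window runs 5′ to 3′ on the gene's strand over 300 letters, 250 before the RefSeq start and 50 after it, and capitals mark every run of at least 4 G or at least 4 C. The windows are RefSeq's on build GRCh38.p14. They lie at chr3:188153648-188153947 on the plus strand (LPP), chr10:77637759-77638058 on the minus strand (KCNMA1), chr7:133252828-133253127 on the plus strand (EXOC4) and chrX:96684592-96684891 on the plus strand (DIAPH2).
LPP: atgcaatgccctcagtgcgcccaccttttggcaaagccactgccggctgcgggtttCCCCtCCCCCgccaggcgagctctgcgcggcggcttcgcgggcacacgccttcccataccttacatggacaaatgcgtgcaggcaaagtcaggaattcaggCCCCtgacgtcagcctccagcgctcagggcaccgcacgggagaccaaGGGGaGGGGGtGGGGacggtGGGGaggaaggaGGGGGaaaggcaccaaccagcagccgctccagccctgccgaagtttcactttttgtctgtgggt
KCNMA1: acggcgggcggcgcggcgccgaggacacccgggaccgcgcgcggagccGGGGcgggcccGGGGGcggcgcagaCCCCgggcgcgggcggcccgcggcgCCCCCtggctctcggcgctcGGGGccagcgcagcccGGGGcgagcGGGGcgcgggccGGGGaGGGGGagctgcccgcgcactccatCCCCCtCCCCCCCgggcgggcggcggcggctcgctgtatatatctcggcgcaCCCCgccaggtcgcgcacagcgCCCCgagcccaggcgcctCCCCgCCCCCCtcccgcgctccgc
EXOC4: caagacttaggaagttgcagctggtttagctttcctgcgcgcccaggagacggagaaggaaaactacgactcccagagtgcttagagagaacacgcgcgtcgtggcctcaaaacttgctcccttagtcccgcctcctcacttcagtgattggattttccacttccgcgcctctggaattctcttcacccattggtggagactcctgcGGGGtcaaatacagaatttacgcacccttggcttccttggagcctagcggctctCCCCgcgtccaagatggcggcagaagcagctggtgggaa
DIAPH2: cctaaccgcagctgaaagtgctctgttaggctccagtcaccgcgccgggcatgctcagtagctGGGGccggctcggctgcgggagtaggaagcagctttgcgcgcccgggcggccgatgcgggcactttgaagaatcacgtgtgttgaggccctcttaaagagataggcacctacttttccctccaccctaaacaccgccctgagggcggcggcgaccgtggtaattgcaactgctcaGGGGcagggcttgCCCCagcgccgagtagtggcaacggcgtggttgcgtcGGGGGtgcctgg

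The KCNMA1 window held 69 letters in such runs and 85.7% G and C, and the LPP window held 35 letters and 64.7% G and C. The EXOC4 window held 8 letters in runs and 55.7% G and C, and the DIAPH2 window held 17 letters and 64.3% G and C. RefSeq windows were found for 140 of the 175 single-copy genes, and in 104 of them the RefSeq start lay within 1000 bp of the start in the count table. Among these 104, the 18 with a start summit in at least 1 library had a median GC content of 75.0% and 40.5 CG pairs. The 44 without a start summit whose RNA passed the filter described below had 67.0% and 29 CG pairs, and the 42 without a start summit whose RNA did not pass had 59.7% and 15.5 CG pairs. All 27305 RefSeq windows had a median of 58.3% and 14 CG pairs. A run GGGG or CCCC, which is the same run read from the other strand, was present in 18 of the 18, 42 of the 44 and 39 of the 42, and in 89.0% of all windows.

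RNF8 counts, given first as the check of the hairpin, were 175, 195 and 142 in the shRNF8 libraries and 561, 537 and 553 in the shScr libraries, a log2 fold change of -1.66 with an adjusted p of 0.000165 (edgeR). The RNA libraries held 18121181 to 20006954 counts. Of the markers known in this line, VIM was at a mean of 1018 CPM (counts scaled to library size), MSN at 757 CPM and CD44 at 574 CPM. AXL and CAV1 were at 256 and 112 CPM, and SPARC was lower, at 19.0 CPM. The luminal markers ESR1 and CDH1 were at 0.0256 and 0.113 CPM, while KRT8 and KRT18 were at 668 and 357 CPM. Of the immune markers PTPRC, CD3E and CD79A were below 0.2 CPM and CD14 was at 9.57 CPM. Of the neuronal markers STMN2 had 0 counts, RBFOX3, MAP2, SNAP25 and SYT1 lay between 1.25 and 7.62 CPM and TUBB3 was at 374 CPM. The library shScr replicate 1 lay with the shRNF8 libraries on the first principal component of the RNA, at -14.7, against -23.4 to -10.7 for shRNF8 and 31.2 and 30.4 for shScr replicates 2 and 3, and RNA results are therefore also given without it.

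RNA could be tested in the better expressed part of the very long genes. Of the 195, 40 had 0 counts in all 6 libraries (19 of them among the 20 with several copies). The filter on low counts was passed by 101, 100 of them among the 175 single-copy genes. The 101 are 51.8% of all members, those with several copies included, against 71.0% of the 3185 genes of 100 to 600 kb. Per kb of exon, the 101 had a median level of 0.909 CPM, against 4.17 CPM per kb for genes of 100 to 600 kb and 8.71 CPM per kb for genes of 10 to 100 kb. A low count may mean few transcripts in each cell or few cells with the transcript, and bulk libraries do not tell these apart. The adjacent genes SCHIP1 and IQCJ-SCHIP1, a read-through, share exons and are both listed at 0 counts. Among the members with several copies, BOLA2 and BOLA2B have the same positions and 0 counts, as do SLX1A and SLX1B. The counting command sets no option for reads that overlap several genes. Whether such reads went uncounted was not tested.

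The highest RNA levels belonged to genes of chromatin, vesicle traffic, the cytoskeleton and the cell surface. SMYD3, a lysine methyltransferase, led with 19.4, 20.7 and 19.9 CPM per kb in the shRNF8 libraries and 17.1, 21.1 and 21.2 in the shScr libraries. Next came TRAPPC9, a subunit of a vesicle tethering complex, with means over both hairpins of 13.3 CPM per kb, EXOC4 and EXOC6B, subunits of the exocyst that docks vesicles at the plasma membrane, with 12.9 and 12.1, and NAV2, a microtubule-binding protein of the navigator family, with 11.8. PARD3, a scaffold of cell polarity, had 9.10, C10orf11 had 9.02, CDH13, a cadherin without a cytoplasmic tail, had 8.45, GPC6, a glypican of the cell surface, had 8.33, and LRBA, a protein of vesicle traffic, had 7.45. SMYD3 lay above the other 9 in every library. The ranges over the 6 libraries of TRAPPC9, EXOC4 and EXOC6B overlapped one another, as did those of PARD3, C10orf11 and CDH13, so their order is not resolved. The longest single-copy genes were low: DMD, the dystrophin gene, had a mean of 0.938 CPM per kb, PTPRD 0.511, MACROD2 0.245 and DLG2 0.0688, and CSMD1 had 0 counts in every library.

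**Figure D1:**
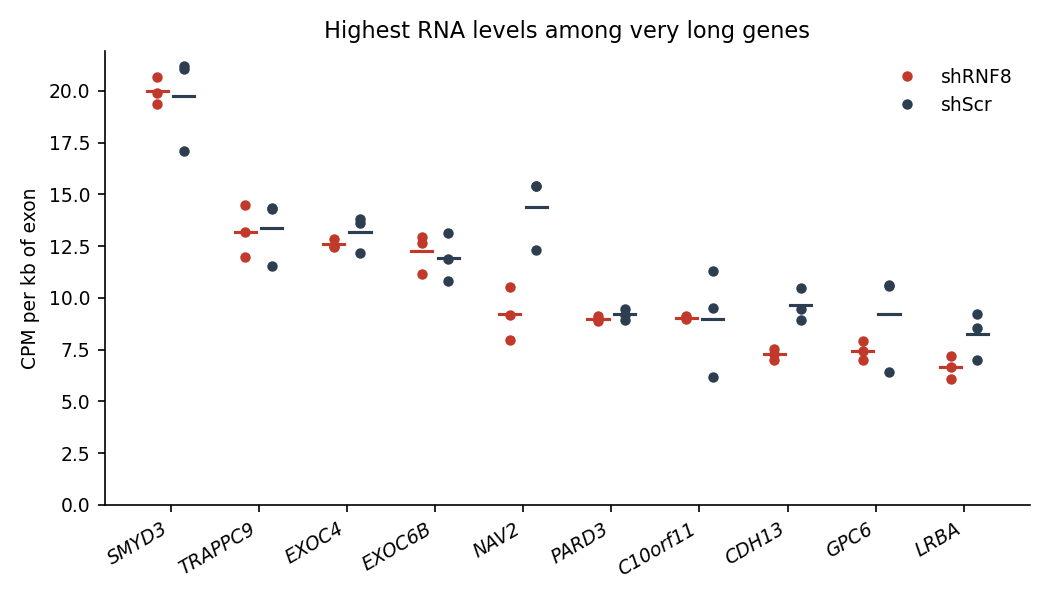
RNA level, in CPM per kb of exon, of the 10 very long genes with the highest mean. Points are libraries (3 shRNF8 on the left, 3 shScr on the right of each pair) and lines are group means. SMYD3 lies at 17.1 to 21.2 in all libraries, and the groups of NAV2 (7.98 to 10.5 against 12.3 to 15.4) and CDH13 (7.01 to 7.52 against 8.96 to 10.5) do not overlap.

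With shRNF8 compared with shScr, 1 of the 101 tested genes changed: NAV2 fell. With edgeR's quasi-likelihood test, adjusted by Benjamini-Hochberg over all 14018 genes tested, none of the 101 was higher and 1 was lower, while 0.97% of all genes tested were called higher and 1.57% lower. At an unadjusted p under 0.05 there were 22 of 101 very long genes (21.8%), close to the 20.1% of all genes. NAV2 (chr11:19350724-20121601, plus strand) had 124, 108 and 93.8 CPM in the shRNF8 libraries and 145, 181 and 181 CPM in the shScr libraries. All 3 shRNF8 libraries lay below all 3 shScr libraries. Its mean was 108 ± 14.9 CPM in shRNF8 and 169 ± 20.9 CPM in shScr (SD, n = 3 each), a log2 fold change of -0.64 (SE 0.12) with an adjusted p of 0.0226 (edgeR). The call was lost when shScr replicate 2 or 3, or shRNF8 replicate 2 or 3, was left out, with adjusted p up to 0.143, and without shScr replicate 1 the adjusted p was 3.51e-05.

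The 8 genes with the next smallest p did not pass with all 6 libraries. CDH13 had 32.6, 31.5 and 30.4 CPM in shRNF8 and 45.4, 41.1 and 38.8 CPM in shScr (log2 fold change -0.41, SE 0.10, adjusted p 0.0608, edgeR). NEGR1, an adhesion molecule of neurons, had 11.3, 11.5 and 16.1 CPM in shRNF8 and 7.78, 9.27 and 8.1 CPM in shScr (log2 fold change 0.63, SE 0.17, adjusted p 0.0781). The groups did not overlap in either gene. LRP1B, a large receptor of the LDL receptor family, had 1.28, 0.871 and 1.73 CPM in shRNF8 and 0.412, 0.434 and 0.557 CPM in shScr (log2 fold change 1.45, SE 0.40). SOX5, a transcription factor of cartilage and neurons, had 3.57, 2.97 and 2.52 CPM in shRNF8 and 0.876, 1.68 and 1.77 CPM in shScr (log2 fold change 1.06, SE 0.31). DPYD, the enzyme that starts the breakdown of uracil and thymine, had 1.44, 1.38 and 1.68 CPM in shRNF8 and 2.37, 2.93 and 2.94 CPM in shScr (log2 fold change -0.87, SE 0.25). Again no shRNF8 library fell within the shScr range in these 3 genes. AGAP1, a GTPase-activating protein of vesicle traffic, NELL1, a secreted protein of bone growth, and PTPRN2, a phosphatase-like protein of secretory granules, had log2 fold changes of -0.35, 1.04 and -0.54 with SE of 0.11, 0.33 and 0.17 and adjusted p of 0.113, 0.118 and 0.121 (edgeR). These calls depend on shScr replicate 1: without it, all of the 8 but NELL1 passed, with adjusted p of 0.0029 for AGAP1, 0.00421 for PTPRN2, 0.0132 for DPYD, 0.0135 for CDH13, 0.0164 for NEGR1, 0.0325 for LRP1B and 0.0342 for SOX5 (edgeR). In that setting 27.1% of all 14259 genes tested were called, and the 8 had been chosen for their small p. With all 6 libraries, CDH13 and NEGR1 passed with DESeq2 (adjusted p 0.0246 and 0.0324) and without the filter on low counts (0.0460 and 0.0342, edgeR), and SOX5 passed without that filter (0.0489, edgeR).

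**Figure D2:**
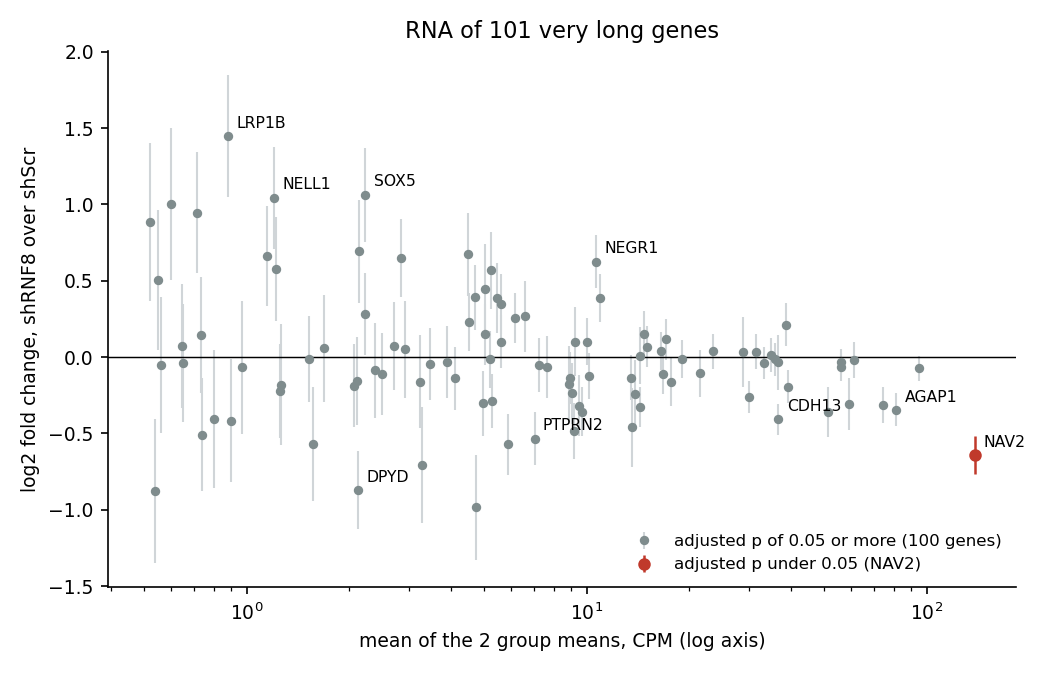
Log2 fold change of RNA, shRNF8 over shScr, against mean level in CPM for the 101 very long genes tested. Points are genes and bars are standard errors. NAV2, at -0.64, is the gene past the threshold, and genes under 3 CPM have the widest errors.

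Taken over the 101 genes, levels were close to those of the control. The median log2 fold change was -0.04, against 0.00 over all genes tested and -0.03 for genes of 100 to 600 kb, and 59 of the 101 lay below 0 (58.4%, against 50.8% of all genes). In 24 of the 101 (23.8%) all libraries of 1 hairpin lay beyond those of the other, 13 with shRNF8 above shScr and 11 with it below, and such genes were 25.3% of all tested. The measured effects ranged from -0.98 for ZBTB20 to 1.45 for LRP1B. The median SE was 0.21 among the very long genes and 0.13 over all genes tested, which goes with their median levels of 5.58 and 26.4 CPM. Genes of 100 to 600 kb, for comparison, had 50 called higher and 36 called lower of 2262 tested.

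Without shScr replicate 1, 20 of 104 very long genes were lower (19.2%, against 14.3% of all genes tested) and 7 were higher (6.73%, against 12.8%). Their median log2 fold change was -0.09, against -0.06 for genes of 100 to 600 kb and 0.00 over all genes. The position of that library is visible in the levels themselves. The median deviation of the 101 genes from their own mean over the 6 libraries was -0.02, 0.00 and -0.02 (log2) in the shRNF8 libraries, and -0.13 in shScr replicate 1 against 0.10 and 0.09 in shScr replicates 2 and 3. The spread within shScr was thus wider than the distance of shRNF8 from either.

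Sorted by role, 1 gene in 5 lists was called. The lists were chosen with earlier results of these data known, and only their counts are given. Adhesion and axon guidance held 44 very long genes, of which 17 were tested and none called, with a median log2 fold change of 0.06. Ion channels, transmitter receptors and synaptic proteins held 29, with 19 tested, none called and a median of -0.07. That list also counts LRP1B, the receptor of the LDL receptor family. Genes of the cytoskeleton, muscle and cell polarity held 19, with 12 tested, 1 lower (NAV2) and a median of -0.16. Kinases, phosphatases, phosphodiesterases and signalling proteins held 20, with 13 tested and none called (median -0.02). EXOC4, EXOC6B and TRAPPC9, which act in vesicle traffic, are counted among them. Transcription, chromatin and RNA-binding proteins held 14, with 11 tested and none called (median 0.02). VPS13B, a protein of Golgi membranes, is counted there too. The very long genes in none of these 5 lists numbered 69, with 29 tested and none called. Against these, 2.54% of all genes tested were called and their median was 0.00. At that share, lists of this size hold few calls or none.

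Genes known from common fragile sites, where chromosomes break under replication stress, held 33 very long genes, of which 23 were tested and none called (median log2 fold change 0.03). FHIT, a tumour suppressor at the fragile site FRA3B, had a mean of 0.737 CPM and a log2 fold change of -0.51 (SE 0.37). WWOX, at FRA16D, had 10.9 CPM and a log2 fold change of 0.39 (SE 0.15, adjusted p 0.194, edgeR). DMD had 15.5, 15.4 and 15.6 CPM in shRNF8 and 11.1, 16.0 and 14.7 CPM in shScr, where shRNF8 fell inside the shScr range. A list of 38 factors of transcription through long genes, all tested, includes RNF8. RNF8, the target of the hairpin, was the one called, while 2.54% of all genes tested were called. The smallest p after it belonged to AFF1, SUPT16H and SUPT4H1. Their log2 fold changes were -0.43, -0.39 and 0.44 (adjusted p 0.0781, 0.0995 and 0.120, edgeR). TOP1, the topoisomerase that relaxes DNA ahead of the polymerase, had a log2 fold change of 0.19 (SE 0.10, adjusted p 0.307), XRN2 of 0.15 (SE 0.11, adjusted p 0.468) and SFPQ, an RNA-binding protein needed in long introns, of 0.11 (SE 0.12, adjusted p 0.634, edgeR).

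S9.6 peaks were sparse in very long genes in every library. The 4 shRNF8 libraries had 164, 183, 396 and 347 summits in them, and the 2 shScr libraries had 358 and 224. That is 0.935, 1.04, 2.26 and 1.98 summits per Mb in shRNF8 and 2.04 and 1.28 in shScr, while all other genes held 21.4 to 33.1 per Mb. The log2 ratio of the densities averaged -4.18 over the 6 libraries, so that other genes held 18.1 times as many summits per Mb. The density was lower in very long genes in 6 of 6 libraries (two-sided exact sign-flip permutation test over the 6 libraries, p = 0.0312, the smallest that 64 arrangements allow). With the 20 members of several copies left out the mean log2 ratio was -4.67, since the chromosome 16 cluster alone held 43, 58, 75 and 75 summits in shRNF8 and 80 and 64 in shScr, in short genes that lie between the copies such as MAZ, TAOK2 and CORO1A. All further counts are for the 175 single-copy genes unless stated.

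Very long genes with measurable RNA were sparse in peaks too. The 100 single-copy genes whose RNA was tested held 1.04 to 2.77 summits per Mb over the 6 libraries, and the 75 whose RNA was not tested held 0.0722 to 0.144 per Mb. The first density was 15.7 times the second on average (two-sided exact sign-flip permutation test over 6 libraries, p = 0.0312, the smallest possible). Genes of 100 to 600 kb whose RNA was tested held 10.8 to 23.1 per Mb, 9.08 times the density of very long genes whose RNA was tested (the same exact permutation test, p = 0.0312). Without AGAP1 and NAV2, which held the most summits, the 98 other tested genes had 0.712 to 1.55 per Mb. RNA level was lower in the very long genes than in these shorter genes, as given above, and its part in the difference of density was not tested.

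**Figure D3:**
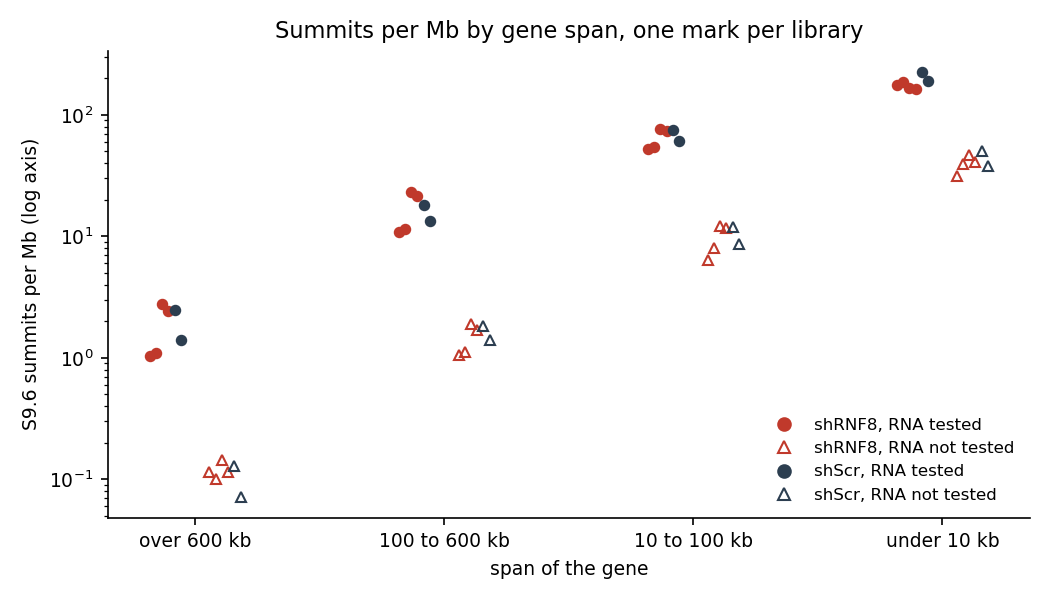
S9.6 summits per Mb (log axis) by span of the gene, 1 mark per library, for genes whose RNA passed the filter (filled circles) and genes whose RNA did not (open triangles). Very long genes with tested RNA lie at 1.04 to 2.77 per Mb and those without at 0.0722 to 0.144, below the shorter classes of the same kind.

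No difference between the hairpins was measurable in this with 6 libraries. Very long genes (all 195) took 0.507, 0.537, 0.777 and 0.715% of the summits in the shRNF8 libraries and 0.727 and 0.579% in the shScr libraries, means of 0.634 ± 0.132% (SD, n = 4) and 0.653 ± 0.104% (SD, n = 2), a difference of -0.0192 points (two-sided exact permutation test, p = 0.8). The log2 density relative to other genes was -4.21 ± 0.32 in shRNF8 and -4.13 ± 0.24 in shScr (difference -0.07, exact permutation p = 0.667). With 4 libraries against 2 there are 15 arrangements and p cannot go below 0.0667, so none of these tests could pass. The shRNF8 libraries fell into 2 pairs: replicates 1 and 2 lay below both shScr libraries in share and density, and replicates 3 and 4 lay within or above them. The peak names in the lists of replicates 3 and 4 carry the name stems of replicates 1 and 2, although the peaks differ. Without replicates 3 and 4 the difference in share was -0.131 points, and without replicates 1 and 2 it was 0.0929 points. The depth of the DRIP libraries is unknown, and they held 32358 to 50963 peaks.

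Of the 175 single-copy genes, 107 had no summit in any of the 6 libraries, 51 had one in 1 to 5 libraries and 17 had one in all 6. Summits were absent from 45 of the 100 genes whose RNA was tested and from 62 of the 75 whose RNA was not. The 5 longest were all without a summit, DMD and PTPRD among them. So were DIAPH2, a formin that nucleates actin, CDKAL1, an enzyme that modifies a transfer RNA, and ROBO1, the receptor of the axon guidance cue SLIT, which had 5.84, 5.24 and 4.2 CPM per kb of RNA. AGAP1, NAV2 and TRAPPC9 together took 31.2, 41.6, 59.5 and 59.0% of the summits of all 175 genes in the shRNF8 libraries and 46.4 and 45.1% in the shScr libraries.

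AGAP1 (chr2:235494089-236131800, plus strand) had the highest density averaged over the 6 libraries, with 22, 29, 51 and 42 summits in shRNF8 and 65 and 43 in shScr. NAV2 followed with 9, 9, 72 and 67 in shRNF8 and 28 and 16 in shScr, and it exceeded AGAP1 in shRNF8 replicates 3 and 4. TRAPPC9 (minus strand of chromosome 8) had 3, 9, 43 and 35 in shRNF8 and 23 and 5 in shScr. In both NAV2 and TRAPPC9 shRNF8 replicates 3 and 4 were above, and replicate 1 below, both shScr libraries, so no direction between hairpins can be read from them. FRMD4A, a scaffold of cell polarity, had 5, 5, 16 and 11 summits in shRNF8 and 11 and 12 in shScr. TTC28, a tetratricopeptide protein, had 5, 4, 8 and 7 in shRNF8 and 14 and 7 in shScr. PTPRN2 had 10, 13, 4 and 2 in shRNF8 and 24 and 7 in shScr, the reverse order among the shRNF8 libraries. CSMD2 had summits in shRNF8 replicates 3 and 4 (7 each) and in shScr replicate 1 (2).

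**Figure D4:**
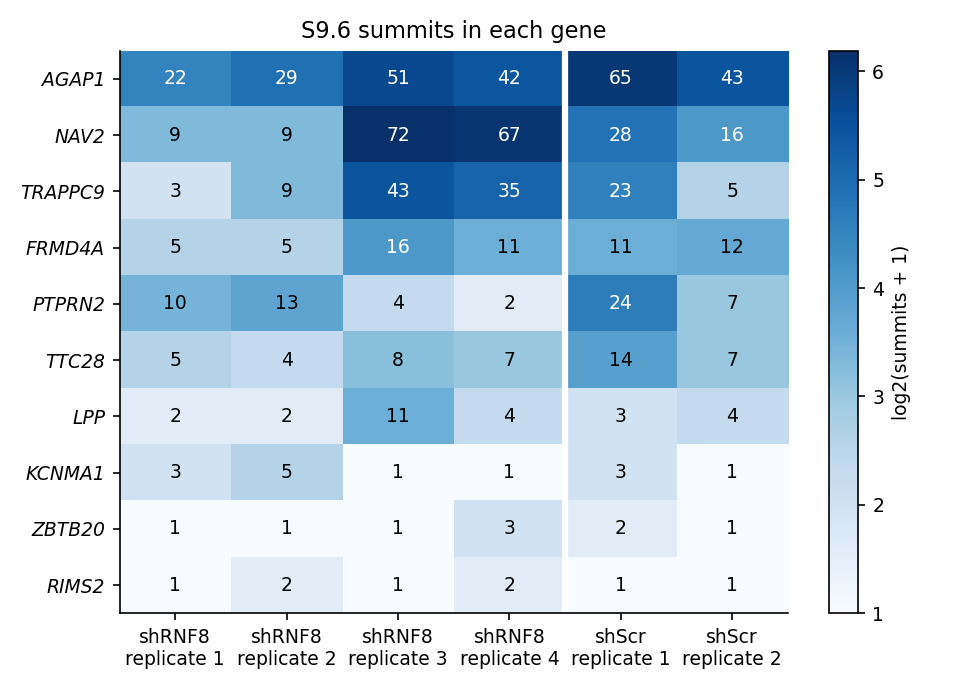
Number of S9.6 summits in each of 10 single-copy genes (rows) and 6 libraries (columns, 4 shRNF8 left of 2 shScr), with the colour on a log2(summits + 1) scale. AGAP1 has 22 to 65 summits in every library, whereas NAV2 has 72 and 67 in shRNF8 replicates 3 and 4 and 9 to 28 elsewhere.

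The 83 merged regions of NAV2, each placed by 1 position, were all in the distal part of the gene, 364 to 769 kb from the annotated start. Of the 43 exons that the count table gives, 1 lies in the first 360 kb and the second begins 363 kb from the start. A region called in all 6 libraries (chr11:19712070-19720811, mean fold 12.2 over local background) was placed at 364 kb, a point 512 bp from an exon. The region itself is wider and covers the start of the second exon, and it also holds the start of LOC100126784. A second such region lay at 373 kb (mean fold 7.15) and another at 583 kb (mean fold 5.04). Of the 83 regions, 49 were called only in shRNF8 replicates 3 or 4 or both, and 35 in 1 library. AGAP1 showed the other pattern, with 135 regions spread from 5.69 to 637 kb, of which 82 were called in 1 library and 1 in all 6 (at 176 kb, mean fold 4.09). TRAPPC9 had 80 regions over the whole gene, none in all 6 libraries and 48 only in shRNF8 replicates 3 or 4 or both.

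**Figure D5:**
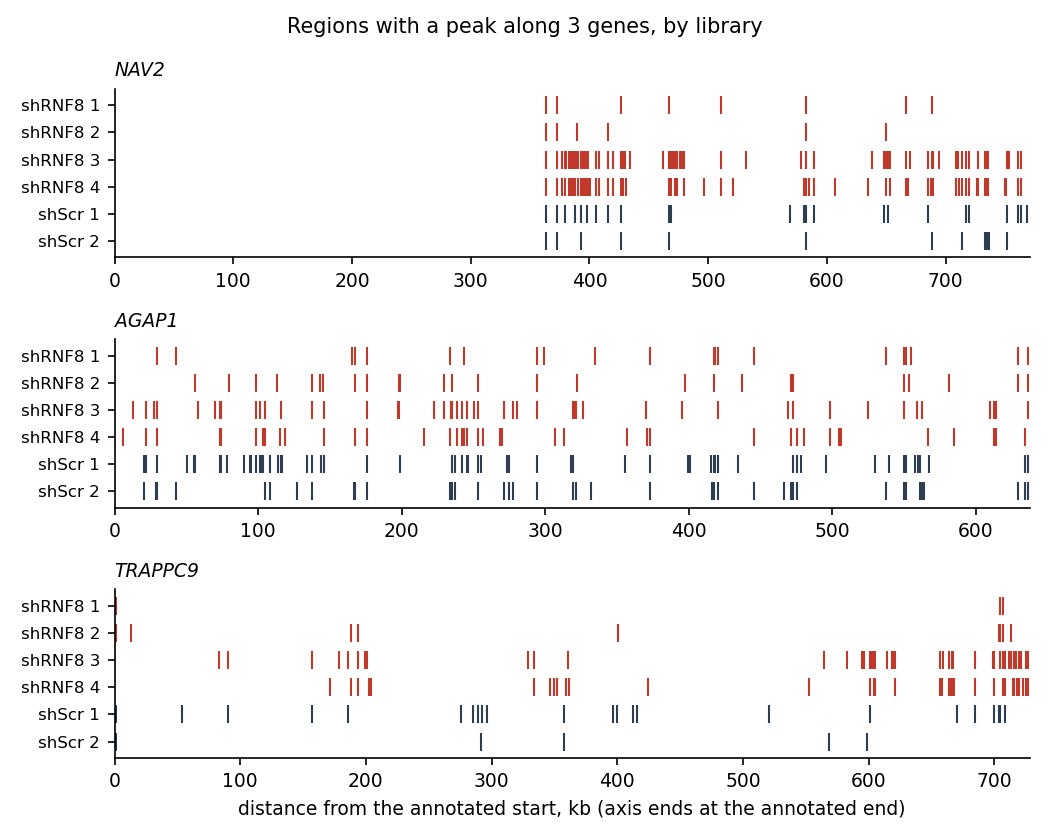
Distance from the annotated start, in kb, of each merged S9.6 region in NAV2, AGAP1 and TRAPPC9, with a row for each library (4 shRNF8 above 2 shScr). The first NAV2 region is marked at 364 kb in every library, while those of AGAP1 run from 5.69 to 637 kb.

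With the summits of all single-copy genes pooled, the first 1 kb held the highest density of peaks, and the part beyond 300 kb held most of the peaks. In the first 1 kb there were 80.0, 34.3, 40.0 and 45.7 summits per Mb in shRNF8 and 51.4 and 28.6 in shScr. Beyond 300 kb the density was 0.586, 0.595, 1.71 and 1.62 per Mb in shRNF8 and 1.44 and 0.866 in shScr. Since 114 Mb of the single-copy genes lies beyond 300 kb, that part still held 61.5, 60.2, 70.3 and 75.8% of the summits in shRNF8 and 66.0 and 69.7% in shScr. With each gene divided into 10 equal parts, the last of these parts held 22.0, 23.9, 28.0 and 27.5% of the summits in shRNF8 and 26.4 and 31.0% in shScr. The first part held 26.6, 13.3, 13.6 and 10.7% in shRNF8 and 13.2 and 14.1% in shScr, and each of the 8 parts between held 1.83 to 14.8%. The pooled summits were thus most frequent in the last part in all libraries but shRNF8 replicate 1, where the first part held the most. AGAP1, NAV2 and TRAPPC9 held 31.2 to 59.5% of these summits, so the pooled profile need not hold for single genes. Exons held 6.56 to 12.8% of the summits, and the median distance of a region from the nearest exon was 8787 bp. At least 4.66% of the summits in each library lay in another, shorter gene within the long gene, and such peaks cannot be assigned to either.

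A summit within 1000 bp of the annotated start was found in 20, 9, 15 and 10 very long genes in the shRNF8 libraries and in 16 and 9 in the shScr libraries, all of them single-copy genes. These are 4.62 to 10.3% of the 195, against 20.7 to 26.7% of the other genes. The difference averaged -15.5 percentage points and was below 0 in 6 of 6 libraries (two-sided exact sign-flip permutation test, p = 0.0312, the smallest possible). No difference in this number was measurable between the hairpins, at 13.5 ± 5.07 in shRNF8 (SD, n = 4) and 12.5 ± 4.95 in shScr (SD, n = 2; exact permutation p = 0.933). The starts varied from library to library: 35 genes had a start summit in at least 1 library, 17 of them in 1 library and 4 in all 6. Of the 35, RNA was tested in 32. Where RNA was tested, 7 to 18% of the single-copy genes had a start summit, against 19.2 to 28.9% of genes of 100 to 600 kb. Where RNA was not tested, the shares were 1.33 to 2.67% and 2.28 to 4.23%.

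The 4 genes with a start summit in all 6 libraries were RIMS2, a presynaptic scaffold, ZBTB20, a zinc finger repressor, LPP, a LIM protein of focal adhesions, and KCNMA1, the pore of the large-conductance calcium-activated potassium channel. The fold of the start peak over its local background, the authors' value, is given per library as a description, because folds of separately called lists are not set against each other. For RIMS2 it was 9.72, 6.87, 7.18 and 7.75 in shRNF8 and 8.89 and 11.1 in shScr. For ZBTB20 it was 10.7, 6.40, 5.12 and 5.56 in shRNF8 and 6.62 and 6.04 in shScr. For LPP, whose start lies beside that of the antisense gene LPP-AS2, it was 5.29, 3.57, 4.22 and 4.33 in shRNF8 and 9.87 and 10.5 in shScr. For KCNMA1, whose window above has the most runs of G or C, it was 7.41, 3.78, 3.61 and 3.87 in shRNF8 and 7.25 and 5.01 in shScr. All of these peaks lay between 3.57 and 11.1 fold. RNA of the 4 genes spanned a wide range of levels, 6.07 CPM per kb for KCNMA1, 2.77 for LPP, 1.80 for RIMS2 and 0.167 for ZBTB20, and EXOC4 and EXOC6B, at 12.9 and 12.1 CPM per kb, had no start summit in any library. None of the 4 passed the RNA test (adjusted p 0.646, 0.248, 0.202 and 0.150 for KCNMA1, LPP, RIMS2 and ZBTB20, edgeR), although ZBTB20 passed with the replicate block (0.0384) and without shScr replicate 1 (0.000183).

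Few regions in very long genes were called in every untreated library. Merged over the 6 libraries, all 195 genes held 750 regions, of which 23 were called in all 6 libraries (3.07%, against 10.9% of 73564 regions in the genome) and 59.6% in 1 library (against 48.3%). Single-copy genes held 610 regions, 11 of them called in all 6. The one with the highest fold lay in FRMD4A (chr10:14184358-14188140, mean fold 23.4), 144 kb from the annotated start and 144 kb from the nearest exon in the table, and another lay at the FRMD4A end. TTC28 had a region at 687 kb, inside TTC28-AS1. VPS13B, which encodes a protein of Golgi membranes on chromosome 8, had a region at 859 kb (mean fold 5.62), near its end, and SCHIP1 had a region at 491 kb (mean fold 7.04).

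Regions that separated the hairpins were few. Called in all 4 shRNF8 libraries and in neither shScr library were 3 regions (0.400%, against 0.73% of all regions), 1 of them in a single-copy gene, TRAPPC9, 707 kb from its start with a mean fold of 3.8. Called in both shScr libraries and in no shRNF8 library were 19 regions (2.53%, against 2.49% of all regions), 15 of them in single-copy genes. AGAP1 held 5 of these and DLGAP1, a scaffold of the postsynaptic density, held 3 around the start of DLGAP1-AS2. The shares of both kinds were near or under the background.

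In the RNase-treated libraries few peaks were left in very long genes. Summits in the 195 genes numbered 6, 11, 45 and 17 after RNase against 164, 183, 396 and 347 untreated with shRNF8, and 14 and 16 after RNase against 358 and 224 untreated with shScr. The mean difference within hairpins was -264 summits (two-sided exact permutation within hairpins, p = 0.00476, the smallest that 420 arrangements allow), and it was lower after RNase in 6 of 6 pairs of libraries. No start summit remained. Of the untreated number, 3.66 to 11.4% was left in very long genes, and 0.785 to 3.75% of all summits in the same libraries, so that very long genes took 2.36, 2.63, 2.35 and 2.46% of the summits after RNase in shRNF8 and 1.92 and 1.60% in shScr. Peaks left after RNase were in 20 single-copy genes, 2 of which had one in all 6 RNase-treated libraries. PTPRN2 had 2, 6, 7 and 2 summits after RNase in shRNF8 and 2 and 3 in shScr. FOXP1, a forkhead transcription factor, had 1, 2, 2 and 2 after RNase in shRNF8 and 1 and 2 in shScr, and untreated 1, 3, 3 and 6 in shRNF8 and 0 and 0 in shScr. TRAPPC9 had 5 after RNase in shRNF8 replicate 3 and 5 and 5 in the shScr libraries, and 0 in the other RNase-treated shRNF8 libraries. NAV2 had 0 after RNase in all 6 libraries, and AGAP1 had 1, in shRNF8 replicate 3.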

How the data were processed

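RNA counts, S9.6 peaks and RNase-treated S9.6 peaks of 18 of the 21 samples were used. The inputs (3 samples) were not analysed here. Groups came from the sample titles. The authors deposited raw counts per gene, made with featureCounts from read pairs on hg38 without a strand option, per the file headers, so antisense and overlapping genes cannot be told apart. Their peak lists, deposited per library, give a fold enrichment (a linear ratio) and -log10 of the p-value and q-value. The submitters' processing notes name Trim Galore 0.6.6, Bowtie2 2.2.6, STAR 2.7.9a, SAMtools 1.14, Picard 2.10.9, MACS2 2.2.7.1, deepTools 3.5.1 and Subread 2.0.1, with no roles given.

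Counts were filtered with filterByExpr, scaled by TMM and tested with glmQLFit and glmQLFTest of edgeR 4.0.16 in R 4.3.3 over 14018 genes, with the hairpin as the only term and calls at an adjusted p under 0.05. CPM values are TMM-scaled. Alternatives used DESeq2 1.42.0 and limma 3.58.1. Peak lists were handled in Python 3.11.15 (pandas 2.3.3, NumPy 2.4.6, SciPy 1.17.1), with matplotlib 3.10.9 for figures. Peak summits on chromosomes 1 to 22 and X were placed in genes by the count table's positions. Peaks that shared at least 1 bp were merged into regions. The edgeR fit was tested on simulated counts, and the placing of summits in genes on simulated peaks. Named genes were those past the threshold, the next 8 by p, the 10 with the highest level, those with a start summit in all libraries, and the 6 single-copy genes of highest summit density and the 5 longest. CSMD2, FOXP1, DLGAP1, VPS13B, SCHIP1 and the genes named as lacking summits were named after their values were seen. The members and lists were chosen with earlier results of these data known.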

Additional observations from a re-analysis of the deposited data

Results flagged for a closer look

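In 1 measurement a shRNF8 library stood far from the other 3. The share of the summits of very long genes that lie in the gene body, away from the annotated start and end, was 91.5% in shRNF8 replicate 1, against 96.7, 97.5 and 97.1% in shRNF8 replicates 2, 3 and 4 and 97.2 and 97.3% in the shScr libraries. The same library had 14 summits within 1000 bp of a start and inside the gene, against 6 to 8 in the other shRNF8 libraries and 9 and 5 in the shScr libraries. With summits on both sides of the start, as counted above, it had 20 genes with a start summit, against 9, 15 and 10 in the other shRNF8 libraries. The criterion was Dixon's: the gap of the most distant library to its nearest neighbour, divided by the range of the 4 libraries, was 0.875 for the share in the gene body, above the critical value for 4 values at the 95% level. For the number of genes with a start summit this ratio was 0.455, which was not flagged. The other measures screened, of untreated and RNase-treated shRNF8 libraries, had ratios of 0.188 to 0.718 and were not flagged. At that level chance sets 1 library apart in about 1 of 20 groups, and several measures were screened.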

How the results depend on the processing

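The number of very long genes called in RNA, 1 in the analysis reported, was 4 without the filter on low counts, 3 with DESeq2, 2 with the replicate block, 5 with a lower span limit of 500 kb and 0 with one of 800 kb. It was 0 to 27 when 1 library was left out. The 27, of 104 tested, was reached without shScr replicate 1, where 27.1% of all genes tested were called. Upper-quartile scaling, RLE scaling and limma-voom gave 1 each. Same-numbered RNA libraries did not deviate together (correlations of -0.0544, 0.108 and -0.233), so the numbers were not taken to pair samples. The replicate block called NAV2 and ZBTB20.

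Differences between hairpins in DRIP-seq, none of which could pass a test, changed sign in several settings. With the 30000 highest peaks of each library the difference in share was 0.0175 points and in log2 density 0.0238, and with a span limit of 500 kb they were 0.135 and 0.18. Without shRNF8 replicates 1 and 2, added after the data were seen, they were 0.0929 and 0.20, the number of genes with a start summit differed by 0 and the share in the gene body by 0.0324 points. With a -log10 q of at least 4 the number of genes with a start summit differed by -0.25. Leaving out 1 library gave -0.0927 to 0.0544 points in share, -0.243 to 0.0945 in log2 density, -2.5 to 4.5 genes with a start summit and -2.16 to -0.159 points in the gene body. The replicate block, over the 2 shared numbers, gave -0.131, -0.34, 2 and -3.17. The cause of these changes was not tested. The loss of summits after RNase kept its direction and its call under all alternatives run, at -414.6 to -66.6 summits, and at -260.5 with the replicate block. The DRIP depth is unknown, so a gene without a peak has none detectable at that depth.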
